A study of Mus musculus with 4 samples.

Results

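Cluster 1 is the group of proximal tubule nuclei that carried the markers of the early S1 segment in single-nucleus RNA sequencing of mouse kidney cortex. Its members are the nuclei that the authors' clustering placed in cluster 1 of all 4 libraries, as given by their deposited table of cluster averages. The numbers of nuclei were recovered from the lowest values of the table: 508 from wild type (WT), 153 from Sco2KO/KI, 474 from db/db and 1005 from Sco2KO/KI;db/db. These 2140 nuclei stand among 16139 in all columns whose number could be recovered, and among 21 clusters in all.

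The study compared 4 genotypes on the C57BL/6J strain, each as 1 library of nuclei from kidneys that had been perfused and kept in RNAlater. Sco2 encodes a protein that delivers copper inside mitochondria to cytochrome c oxidase, the last enzyme of the respiratory chain, while that enzyme is built. Sco2KO/KI carries a knockout and a knock-in allele of it, and db/db lacks the signalling form of the leptin receptor and becomes obese and diabetic. The WT library carried neither mutation, and the Sco2KO/KI;db/db library, called the combined mutant here, carried both. Age, animals per library and any pooling were not given in the sources used here. Where 4 values follow a gene, their order is always WT, Sco2KO/KI, db/db and the combined mutant.

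The S1 segment is the convoluted part of the proximal tubule next to the glomerulus, where most filtered glucose, amino acids, bicarbonate and small proteins are taken back. Sodium-coupled carriers in the apical brush border bring these solutes into the cell, and facilitative carriers in the basolateral membrane pass them to the blood. The same cells make glucose, form ammonia from glutamine, burn fatty acids in dense mitochondria and hold the enzymes that make and break down active vitamin D.

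Each level is the mean over the nuclei of a column of UMIs (counted RNA molecules) per 10000 UMIs of a nucleus, and levels are compared only within a gene. From the estimated mean UMIs per nucleus, 2597, 4479, 2677 and 2241, a level of 0.5 rests on about 66.0, 34.3, 63.4 and 113 UMIs. The Sco2KO/KI values therefore come from the fewest nuclei and the deepest. With 1 library per genotype there is no replicate check, so no test or error can be given for any genotype difference, and every comparison describes these libraries only. A difference is counted when the log2 ratio, taken after adding 0.1 to both levels, reaches 1.0 in either direction, which is about 2-fold. A cluster is the authors' own sorting of nuclei by expression, so which nuclei of a library fell into cluster 1 could itself bear on these levels, which was not tested. Genes entered a comparison when at least 1 of its libraries was at or above a floor of 0.5. The mutated genes could not check the genotypes in cluster 1, because Sco2 was at 0.0560, 0, 0.0164 and 0.0225 and Lepr, the leptin receptor gene, at 0, 0.0629, 0.0138 and 0.0270, all close to 0.

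The 4 genes that define the cluster's label fitted it in every library. Slc5a2, the apical glucose carrier SGLT2 (chromosome 7, 128265657 to 128272430 on mm10), was at 8.07, 8.49, 5.34 and 10.6. Slc5a12, an apical lactate carrier (chromosome 2, 110597298 to 110647779), was at 39.5, 46.4, 21.3 and 45.1. Slc7a7, a basolateral carrier of cationic amino acids (chromosome 14, 54369442 to 54417780), was at 12.6, 13.5, 14.3 and 11. The db/db library had the lowest Slc5a2 and Slc5a12 of the 4, while Slc7a7 lay within a narrow range. Nox4, an NADPH oxidase abundant in renal tubules (chromosome 7, 87246096 to 87398710), was at 47.0, 64.5, 66.9 and 49.7. Averaged over libraries, each of the 4 was higher in cluster 1 than in any of the other 20 clusters.

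Proximal tubule markers in the deposited table also led clusters 0, 2, 3 and 7, so cluster 1 was set against these 4 within each library. Because the clusters were formed on the same expression values, these figures describe how cluster 1 was formed and are no test. All 10 of 10 listed S1 genes were higher in cluster 1 than in each of the other 4 clusters in all 4 libraries, and 9 of 10 were at least 2-fold above their mean, with a median log2 ratio of 1.92. The exception to the 2-fold rule was Slc4a4, the basolateral sodium bicarbonate carrier, at a mean log2 ratio of 0.94. Cluster 2 was the nearest: its mean levels over libraries were 4.74 for Slc5a2, 30.7 for Slc5a12, 5.83 for Slc7a7 and 31.7 for Nox4, against 8.12, 38.1, 12.9 and 57.0 in cluster 1. Of 7 S2 genes, 5 were at least 2-fold lower in cluster 1 in every library, with a median of -1.50. Of 12 listed S3 genes, 11 were measured and 8 were at least 2-fold lower, with a median of -2.56. The 12 genes of the whole proximal tubule had a median of -0.01; among them Slc34a1, the main phosphate carrier, had a mean log2 ratio of 0.46 and Slc27a2, a fatty acid carrier, -1.77.

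**Figure D1:**
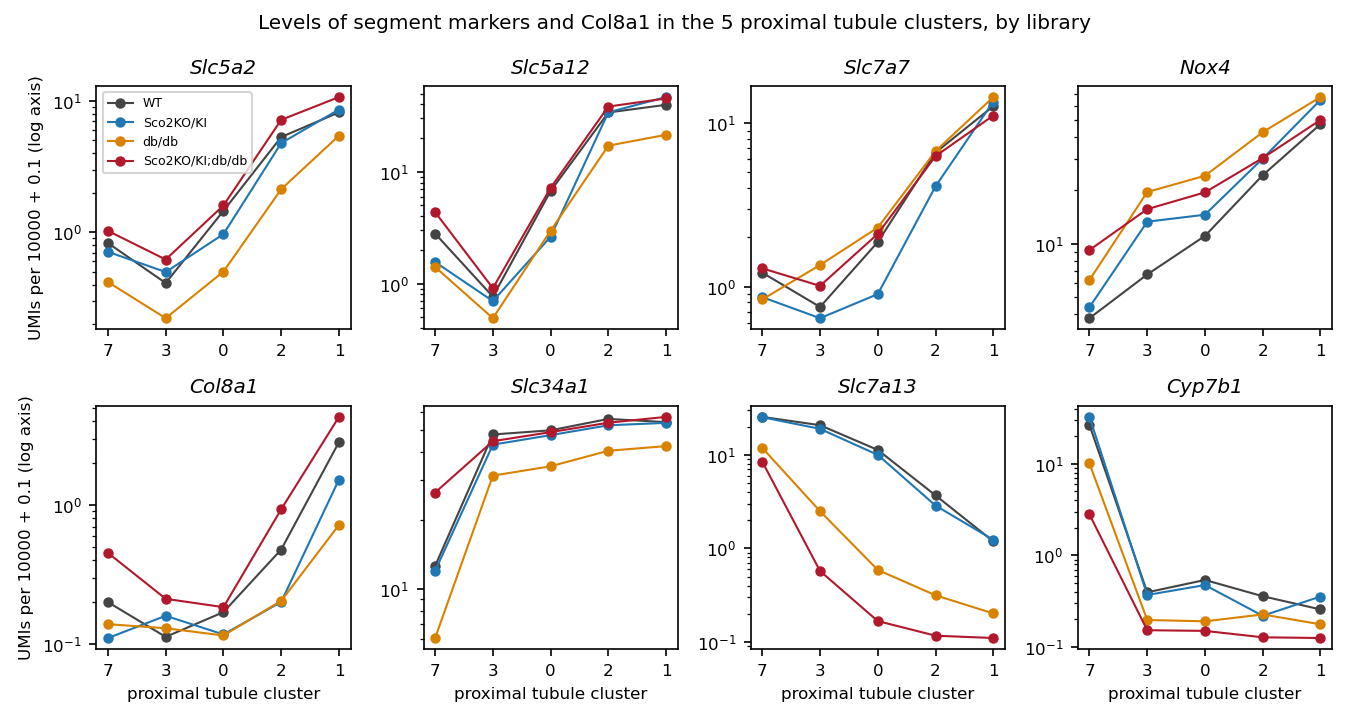
Levels (UMIs per 10000 plus 0.1, log axis) of 8 genes in proximal tubule clusters 7, 3, 0, 2 and 1, with 1 line per library. The S1 genes Slc5a2, Slc5a12, Slc7a7 and Nox4 and also Col8a1 were highest in cluster 1 in every library, Slc34a1 was lowest in cluster 7, and the S3 genes Slc7a13 and Cyp7b1 were highest there.

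Across all genes, 75 of 3576 (2.1%) were at least 2-fold higher in cluster 1 than in the mean of clusters 0, 2, 3 and 7 in all 4 libraries, and 131 of 3694 (3.55%) were at least 2-fold lower. Among the higher genes were Col8a1, a chain of type VIII collagen, with a mean log2 ratio of 3.13, Acss1, the mitochondrial acetyl-CoA synthetase, with 2.91, and Epb41l3, a membrane cytoskeleton protein, with 2.81. Angpt1, a ligand of the endothelial receptor Tie2, followed with 2.79, and Pip5k1b and Dgkb, a pair of enzymes of lipid signalling, with 2.76 and 2.68. Acss1 was not highest in cluster 1 among all 21 clusters, since its level averaged over libraries was 8.30 here and 14.1 in cluster 12. The lowest ratio was -4.03, of the antisense transcript 4930533I22Rik. Next came Cyp7b1, a steroid hydroxylase, at -3.99, Slc7a13, a cystine carrier of the S3 segment, at -3.96, and Esr1, the oestrogen receptor alpha, at -3.64. The lactate carrier Slc5a8 was at 0.391, 0.401, 0.418 and 0.142 in cluster 1 against 5.02, 5.08, 4.85 and 3.74 in the other clusters, the opposite of its relative Slc5a12. Slc6a18, an apical carrier of neutral amino acids, was at -3.43, while Slc6a19, which carries the same class of amino acids in earlier segments, was at 1.48.

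Promoters of 6 of 10 genes looked up were matched by symbol in a RefSeq table on build GRCm38.p6, and 3 are shown, Nox4 here because it marks the cluster and Cyp27b1 and G6pc further on because they differ between its libraries. The windows hold the 250 bases before a transcription start. Capitals mark exact matches, on either strand, to AGGTCA, core letters of many nuclear receptor sites, which 14% of all 32851 promoters of the table hold. The window of Nox4 covers chr7:87246399-87246648 on the plus strand, with no match. It lies within the gene coordinates given above, which come from another annotation with an earlier start.
Nox4: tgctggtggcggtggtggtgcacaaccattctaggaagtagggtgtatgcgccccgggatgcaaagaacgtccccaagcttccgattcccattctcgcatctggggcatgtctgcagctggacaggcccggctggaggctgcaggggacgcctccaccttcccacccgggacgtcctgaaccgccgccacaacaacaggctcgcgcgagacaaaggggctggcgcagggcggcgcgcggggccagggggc
In cluster 1 the transcripts of the nuclear receptor gene Hnf4a, a transcription factor of the proximal tubule, were at 4.05, 4.1, 3.54 and 4.4, which is a level and not a measurement of binding.

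Markers of other kidney cells were also present at low level. The 7 thick ascending limb markers summed to 9.42, 7.40, 7.11 and 4.44, and Slc12a1, the salt carrier that defines that segment, was at 2.23, 0.906, 1.26 and 0.315 in cluster 1 against 156, 184, 157 and 127 in cluster 4. The 4 connecting tubule markers summed to 4.43, 1.51, 3.24 and 5.09; among them Slc8a1, a sodium calcium exchanger, was at 2.80, 0.758, 2.04 and 1.93 against 220, 255, 263 and 445 in cluster 8. Of the thick ascending limb sum Cldn10, a claudin that was highest in proximal tubule cluster 0 among all 21 clusters, held 2.79, 3.99, 4.42 and 2.62. The 6 distal convoluted tubule markers summed to 10.1 to 13.8, mostly from Kl (klotho), at 2.84 to 5.82, and Trpm7, at 5.47 to 6.32, which clusters 0, 2 and 3 held at like levels. Slc12a3, the salt carrier that defines the distal convoluted tubule, was at 1.73, 0.954, 0.802 and 0.919 in cluster 1 and at a mean of 148 in cluster 5. Principal cell markers summed to at most 1.42 and intercalated cell markers to at most 0.642. Podocyte, endothelium, stroma, leukocyte and cycling lists summed to at most 1.02 in any library, with Cdk1 and Ccnb1 listed at 0 in all 4. Slc12a1 and Slc8a1 were highest in WT, and both are counted among the genes at least 2-fold lower in Sco2KO/KI below. Both were higher in the endothelium-like cluster 9 than in cluster 1 in every library. The part of transcripts from other cells in such values was not tested. The 13 markers of tubule injury had only Spp1, the secreted protein osteopontin, above the floor, at 5.92, 1.79, 2.08 and 3.55, so WT was the highest.

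Sco2KO/KI against WT addresses the Sco2 mutation in mice without the db/db genotype, called lean here. Of 3965 genes, 77 (1.94%) were at least 2-fold higher and 81 (2.04%) at least 2-fold lower, and the median log2 ratio of all was 0.00. Npas3, a transcription factor gene (chromosome 12, 53248677 to 54072175), was at 0.0518, 3.03, 1.87 and 3.99, so WT stood apart from all 3 mutant libraries, and the same order of WT against the rest was seen in clusters 0, 2, 3 and 7. Cacna2d2, an accessory subunit of calcium channels, was listed at 0 in WT and stood at 0.707, 0.483 and 0.433 in the other libraries. In clusters 0, 2, 3 and 7 it was at most 0.12 in any library. Snap91, a clathrin assembly protein of neurons, had a like pattern at 0.0300, 0.558, 0.443 and 0.415, with a log2 ratio of 2.34 for Sco2KO/KI against WT in cluster 1 and 0.01 as the mean of the other 4 clusters. Lmod1, a tropomodulin relative of smooth muscle, was at 0.0319, 0.955, 0.0213 and 0.423, and its log2 ratio of 3.00 in cluster 1 stood beside a mean of 0.18 in the other 4 clusters. Hmox1, the haem oxygenase that answers oxidative stress, was at 0.166, 1.15, 0.0571 and 0.0840, while in clusters 0, 2, 3 and 7 of Sco2KO/KI it was at 0.0807 to 0.186. The Sco2KO/KI value of Hmox1 rests on an estimated 79.1 UMIs. Ugt1a10, a glucuronosyltransferase, was listed at 0 in WT and stood at 0.955, 0.115 and 0.00885 in the other libraries, and Angptl7, a secreted angiopoietin relative, was at 0.0470, 0.652, 0.0700 and 0.0854. Both were above the floor only in Sco2KO/KI. Pde1a, a phosphodiesterase, differed in the opposite way: its ratio was 0.33 in cluster 1, at 7.12, 9, 8.41 and 6.36, against 2.07 in the other clusters.

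Lower genes of Sco2KO/KI were led by Ugt2b38, a glucuronosyltransferase (chromosome 5, 87409942 to 87424203), which was at 3.44 in WT, 2.74 in db/db and 1.51 in the combined mutant and was listed at 0 in Sco2KO/KI. It was also at 0 in the endothelium-like cluster 9 of that library, against 1.16 in cluster 9 of WT. Cpne4, a calcium-dependent membrane protein, was at 1.30, 0.0439, 0.575 and 0.193, with WT highest and Sco2KO/KI lowest. Its log2 ratio of -3.28 in cluster 1 stood beside a mean of -0.34 in the other 4 clusters, and its Sco2KO/KI level rests on an estimated 3.01 UMIs. Erlin1, a protein of the endoplasmic reticulum, was at 3.01, 0.474, 1.64 and 0.709, and Rcan1, an inhibitor of calcineurin, at 5.53, 1.24, 2.88 and 1.49. Cpn1, a carboxypeptidase, was at 1.24, 0.163, 0.583 and 0.413. All 3 genes shared an order in which WT was highest, db/db next and the libraries with the Sco2 mutation lowest. Nuak2, a kinase of the AMPK family, was at 3.78, 1.05, 5.09 and 1.27, again low with the Sco2 mutation, and C4b, a complement component, at 0.715, 0.0572, 0.0725 and 0.0673, which was high in WT alone. Slc39a11, a zinc carrier, was at 0.852, 0.179, 0.609 and 0.602, lowest in Sco2KO/KI. Agtr1a, the angiotensin II receptor of type 1a, was at 1.41, 0.488, 0.916 and 0.753, a log2 ratio of -1.36, and Lgmn, the lysosomal protease legumain, at 10.4, 4.18, 4.00 and 3.5. For both, all 3 mutant libraries were below WT.

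Next, db/db was set against WT, for obesity and diabetes without the Sco2 mutation. Of 3990 genes, 69 (1.73%) were at least 2-fold higher and 112 (2.81%) at least 2-fold lower, with a median of 0.04. Lower genes included several that other work links to androgen in mouse kidney. Kap, the kidney androgen-regulated protein, was at 22.2, 25.6, 2.83 and 1.89, but it was higher still in the endothelium-like cluster 9, at 48.0, 59.1, 5.82 and 5.78, a cell type that should lack it. Endothelial markers summed to 58.2, 92.1, 77.9 and 97.9 in cluster 9 and to at most 0.798 in cluster 1. For a gene that endothelium should lack, a level at or below that of cluster 9 is read as background, so Kap is no measure of expression in cluster 1. Slc7a13 was likewise lower in cluster 1, at 1.09, 1.14, 0.102 and 0.0102, than in cluster 9, at 2.93, 1.83, 0.137 and 0.0419. Cyp4b1, a fatty acid hydroxylase, was at 5.61, 12.1, 1.20 and 6.49 in cluster 1 and at 5.48, 4.38, 1.33 and 3.03 in cluster 9, so in WT and db/db it too was at the level of that background. Among the other lower genes, Slc7a2, a carrier of cationic amino acids, was at 0.713, 0.154, 0.0728 and 0.527. Nrxn3, a neurexin of neuronal contacts, was at 0.963, 0.435, 0.158 and 0.316, with a ratio of -2.04 in cluster 1 and 0.10 in the mean of the other proximal tubule clusters, but at 1.49 in cluster 9 of WT and 1.71 in that of db/db. Dnase1, a secreted nuclease, was at 3.81, 5.14, 1.47 and 3.54, lowest in db/db, with a ratio of -1.31 against 0.24 in the other clusters. Serpinf2, an inhibitor of plasmin, was at 0.618, 0.405, 0.0568 and 0.438, and cluster 9 of WT held 0.621 of it.

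Higher genes of db/db included Ncam1, a cell adhesion molecule, at 0.0213, 0.121, 0.808 and 0.143. Its log2 ratio was 2.90 in cluster 1 and 0.23 in the mean of the other 4 clusters, and in cluster 1 only the db/db library stood above the floor. In cluster 9 it was at 0.294, 0.0588, 0.675 and 0.0697. Outside the proximal tubule Ncam1 was highest in cluster 17, at 11.1 in WT, 9.27 in db/db and 10.5 in the combined mutant. The part of transcripts or nuclei from such cells in the cluster 1 value was not tested. Mctp2, a membrane protein that binds calcium, was at 0.0943, 0.0545, 0.790 and 0.248 and Ppp2r2b, a subunit of a protein phosphatase, at 0.0761, 0.159, 0.686 and 0.126, both highest in db/db. Their ratios against WT were 2.20 and 2.16 in cluster 1 and 0.38 and 0.24 in the other clusters. Fgf1, a growth factor that lowers blood glucose in diabetic mice, was at 1.42, 1.61, 4.11 and 2.25, with a ratio of 1.47 in cluster 1 against -0.53 in the other clusters. Col27a1, a fibrillar collagen chain, was at 4.25, 5.92, 13.3 and 13.8, high in both db/db libraries, and the noncoding RNA Gm26917 at 7.01, 6.43, 35.0 and 19.4, with the same pair of libraries high. Abcc4, an exporter of organic anions (chromosome 14, 118482692 to 118706219), showed the reverse contrast. It was at 2.85, 3.28, 4.01 and 4.47 in cluster 1, whereas in cluster 3 it was at 0.550, 0.459, 6.51 and 11.4 and in cluster 7 at 0.577, 0.454, 15.5 and 14.9. In WT and Sco2KO/KI cluster 1 thus had the highest Abcc4 of the 5 clusters, and in both db/db libraries the lowest.

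The combined mutant was set against db/db for the Sco2 mutation on the diabetic background. Of 3959 genes, 101 (2.55%) were at least 2-fold higher and 79 (2.0%) at least 2-fold lower, with a median of -0.07; after centring on that median the numbers were 131 and 64. Cyp24a1 had the highest ratio and is described with vitamin D below. Col8a1, the collagen chain that also marked the cluster, was at 2.73, 1.42, 0.619 and 4.21, lowest in db/db and highest in the combined mutant. Flvcr2, a choline and haem transporter gene, was at 0.187, 0.527, 0.0606 and 0.705, and Etv5, a transcription factor induced by growth factor signals, at 0.856, 1.05, 0.246 and 1.37. Both were lowest in db/db and above WT in the 2 libraries with the Sco2 mutation. At the low end Gm42397, a long noncoding RNA (chromosome 7, 70870913 to 71073345), was at 6.13, 7.42, 3.76 and 0.244, and Gpc3, a cell surface proteoglycan, at 0.333, 0.384, 1.12 and 0.135. Gm42397 was lowest in the combined mutant in clusters 0, 2, 3 and 7 as well. The log2 ratio of Gpc3 was -2.38 in cluster 1 and -0.57 in the other 4 clusters. Erbb4, a growth factor receptor, was at 1.67, 0.554, 1.05 and 0.687 in cluster 1, with a ratio of -0.54, while the mean ratio of the other clusters was 2.55. In the combined mutant Erbb4 stood at 9.85 in cluster 0 and 11.8 in cluster 3. Cluster 7 of that library held 30 nuclei, against 441 in WT, and a level of 0.5 in it rests on about 7.12 UMIs. The means of the other 4 clusters give it equal weight, so they are less certain for the combined mutant. Myof, myoferlin, a membrane repair protein, was at 0.617, 0.250, 0.994 and 0.178, and Efemp1, a matrix glycoprotein, at 0.187, 0.0353, 0.556 and 0.0154. Each was highest in db/db and lowest in the combined mutant. Outside the proximal tubule of db/db, Gpc3 and Efemp1 were highest in cluster 17, at 4.70 and 2.65, and Myof in cluster 18, at 10.0. The part of such cells in the cluster 1 values was not tested. Cyp2j9, a fatty acid epoxygenase, was at 0.740, 0.664, 0.244 and 1.36.

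Last, the combined mutant was set against Sco2KO/KI, for the db/db genotype among Sco2 mutants. Of 3923 genes, 72 (1.84%) were at least 2-fold higher and 64 (1.63%) at least 2-fold lower, with a median of -0.01. It shares a library with each of the comparisons of the Sco2 mutation, so no likeness to those is drawn. Sugct, a mitochondrial CoA transferase, was at 8.29, 2.33, 4.20 and 12.6, lowest in Sco2KO/KI and highest in the combined mutant. Kynu, an enzyme of tryptophan breakdown, was at 1.55, 0.690, 2.54 and 2.58, and Slc19a1, the reduced folate carrier, at 0.261, 0.124, 0.419 and 0.757. Both were lowest in Sco2KO/KI, and Ctnna2, a catenin of cell junctions, at 0.415, 0.352, 0.488 and 1.5, was high in the combined mutant alone, with a ratio of 1.82 in cluster 1 and 0.14 in the other clusters. Gldc, the decarboxylase of the glycine cleavage system, was at 4.77, 5.4, 8.02 and 11.7, a ratio of 1.10 in cluster 1 against a mean of 3.33 in the other clusters. Gldc was highest in cluster 1 of the 5 clusters in all 4 libraries. Napsa, an aspartic protease, was at 2.17, 2.35, 0.645 and 0.228, but at 6.6, 6.41, 1.43 and 0.436 in cluster 9, so it too is read as background. Gsta2, a glutathione transferase, was at 0.739, 1.91, 1.54 and 1.47, with a ratio of -0.35 in cluster 1 and 2.55 in the other clusters.

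**Figure D2:**
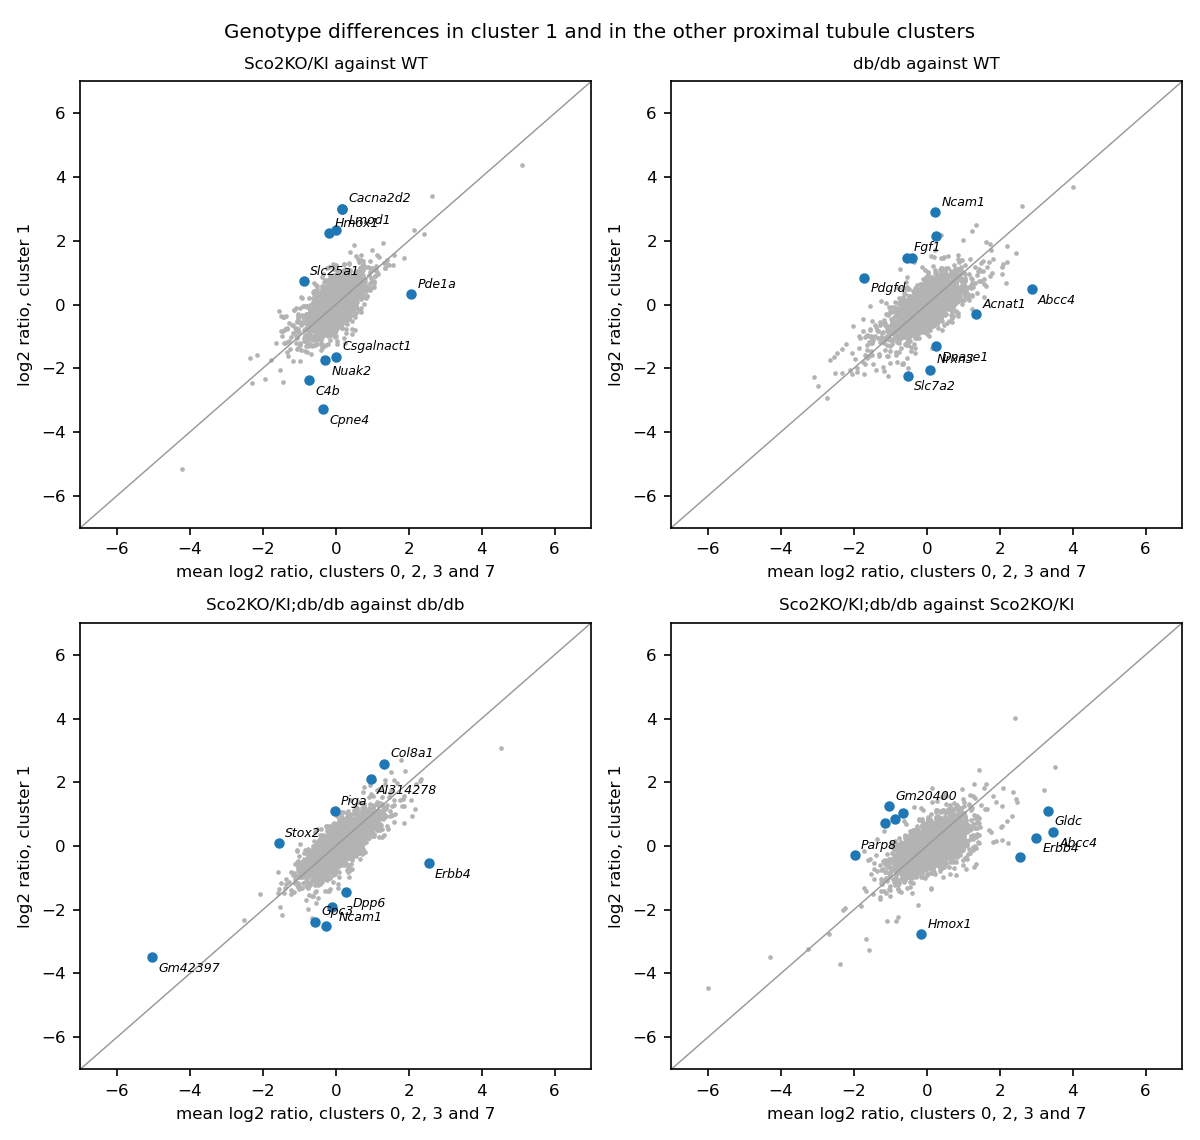
Each point is a gene at or above the floor, with its log2 ratio in cluster 1 (vertical axis) and the mean of its ratios in clusters 0, 2, 3 and 7 (horizontal axis); the line marks equal ratios. Blue points differ most from that line in each comparison, among them Lmod1 (3.00 and 0.18) in Sco2KO/KI against WT, and Ncam1 (2.90 and 0.23) and Abcc4 (0.48 and 2.88) in db/db against WT.

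Most genes past 2-fold in cluster 1 had the same sign in the rest of the proximal tubule. For Sco2KO/KI against WT, 57 of 77 higher and 61 of 81 lower genes had the same sign in all 4 other clusters, and 11 and 17 also passed 2-fold there. The numbers were 53 of 69 and 99 of 112 for db/db against WT, with 15 and 40 past 2-fold. For the combined mutant against db/db they were 89 of 101 and 53 of 79, with 26 and 11 past 2-fold, and for the combined mutant against Sco2KO/KI 57 of 72 and 49 of 64, with 15 and 11 past 2-fold. The clusters of a library share its tissue and preparation, so these counts are no replication. The share of all genes with the same sign in all 4 other clusters was not computed, so the counts have no background beside them. Cluster 7 of the combined mutant held only 30 nuclei, so its signs are the least certain. Of the 75 genes that marked cluster 1 by higher levels, 73, 73, 75 and 75 were above the floor in the 4 comparisons, with 2, 5, 10 and 6 at least 2-fold higher and 1, 8, 3 and 2 lower. Pcdh7 is in 1 of these counts in every comparison, and Col8a1 in all but the first. Of all genes 1.94%, 1.73%, 2.55% and 1.84% were 2-fold higher and 2.04%, 2.81%, 2.0% and 1.63% lower.

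The Sco2 comparisons in lean and in db/db mice share no library and can be set beside each other. Of 3624 genes above the floor in both, 15 were at least 2-fold higher in both, which is 19.5% of the 77 and 14.9% of the 101. Another 15 were lower in both, 18.5% of the 81 and 19% of the 79. The shared higher genes included Npas3, G6pc, Flvcr2, Cyp4b1 and mt-Nd4, a mitochondrially encoded subunit of complex I. Shared lower genes included Cpne4, Erlin1, Nuak2, Myof and the thick ascending limb gene Slc12a1. In cluster 9 Slc12a1 was at 7.67, 3.41, 2.65 and 1.01, above cluster 1 in every library, so it is read as background. Over all genes 2.55% were 2-fold higher and 2.0% lower in the combined mutant against db/db. Opposite signs past 2-fold were found for 5 genes, Pcdh7, Gm3448, Dusp1, Slc7a2 and Sugct. They were 2 of the 77 higher genes (2.6%) and 3 of the 81 lower genes (3.7%), near those all-gene shares of 2.0% and 2.55%. Pcdh7, a protocadherin (chromosome 5, 57717967 to 58133230), was at 1.35, 6.67, 3.55 and 0.628, so that its ratio was 2.23 in lean and -2.33 in db/db mice. The db/db difference, in lean mice and among Sco2 mutants, gave 7 genes higher in both (10.1% of 69 and 9.72% of 72) and 13 lower in both (11.6% of 112 and 20.3% of 64). Over all genes 1.84% were 2-fold higher and 1.63% lower in the combined mutant against Sco2KO/KI.

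**Figure D3:**
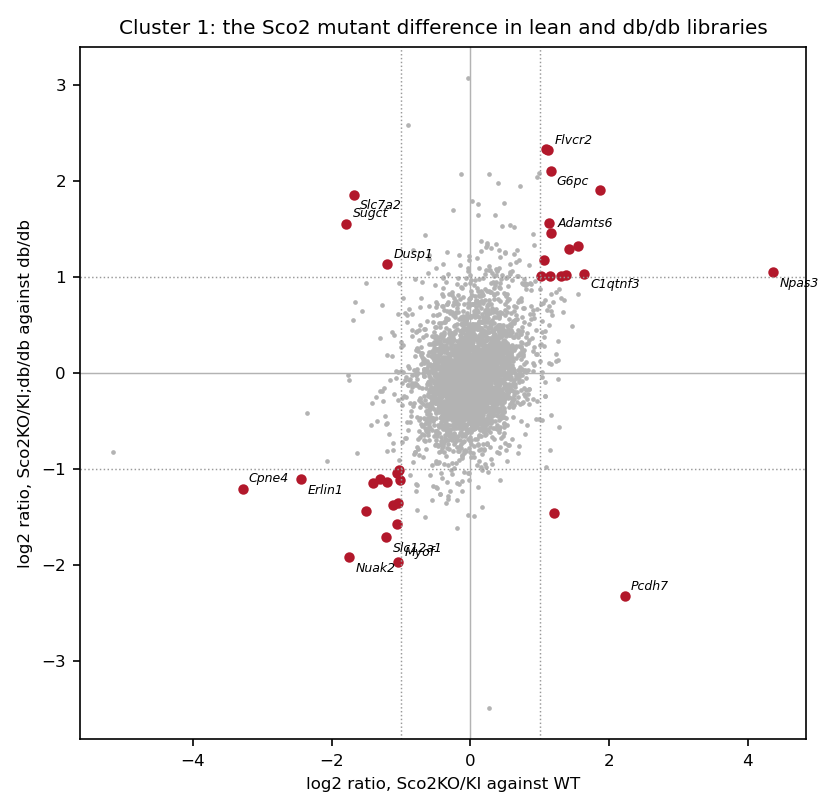
Log2 ratios in cluster 1 of Sco2KO/KI against WT (horizontal axis) and of Sco2KO/KI;db/db against db/db (vertical axis), for genes at or above the floor in both; dotted lines mark 2-fold. Red points passed 2-fold in both, 15 of them upper right, 15 lower left and 5 with opposite signs, and some are named.

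Several apical carriers of S1 reabsorption were lowest in db/db. Slc6a19, the main apical carrier of neutral amino acids, was at 4.50, 4.25, 1.87 and 3.64, and its partner Tmem27, collectrin, at 4.57, 3.56, 2.14 and 4.22. Together with Slc5a2 and Slc5a12 these were lowest in db/db, with log2 ratios against WT of -1.22, -1.06, -0.59 and -0.89. Against db/db the combined mutant was higher for all 4, at 0.93, 0.95, 0.98 and 1.08, of which only Slc5a12 passed the 2-fold rule. Slc7a9, the apical carrier of cystine and basic amino acids, was at 1.44, 2.39, 0.851 and 2.05. The basolateral carriers Slc2a2 (GLUT2), at 6.11, 5.02, 7.47 and 5.61, and Slc7a8, at 9.80, 9.29, 10.2 and 9.36, were not lowest in db/db. Neither was the apical exchanger Slc9a3, given below. In the mean of clusters 0, 2, 3 and 7, Slc5a2, Slc5a12 and Slc6a19 were also lowest in db/db. They were at 0.717, 5.39 and 0.737 there, against 1.90, 10.9 and 1.53 in WT. Across the 10 S1 markers the median ratios were 0.08, 0.12, -0.06 and 0.06 in the 4 comparisons, in the order in which they were described above. In the list of 20 amino acid carriers, 16, 17, 16 and 15 were above the floor, 0, 0, 1 and 0 of them at least 2-fold higher and 0, 3, 1 and 1 lower. Among all genes 1.94%, 1.73%, 2.55% and 1.84% were 2-fold higher and 2.04%, 2.81%, 2.0% and 1.63% lower.

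Of 15 genes of sodium, bicarbonate and ammonia handling, 12, 11, 11 and 12 were above the floor in the 4 comparisons. In db/db against WT 2 of them were at least 2-fold higher and 1 lower, and none passed 2-fold in the other comparisons. Slc4a4 was at 37.5, 44.5, 52.9 and 53.3 and Slc9a3, the apical sodium proton exchanger, at 2.94, 3.52, 4.74 and 3.32. Fxyd2, a regulator of the sodium pump, was lowest in db/db at 3.03, against 8.31 in WT, 6.47 in Sco2KO/KI and 4.55 in the combined mutant. Glud1, glutamate dehydrogenase, which releases ammonia from glutamate, was at 3.58, 3.35, 8.28 and 4.69. It was highest in db/db, with a ratio against WT of 1.19 and a mean ratio in clusters 0, 2, 3 and 7 of 0.93. The endocytic receptors Lrp2 (megalin), at 21.3, 24.4, 24.4 and 15.9, and Cubn (cubilin), at 6.53, 7.24, 6.96 and 7.30, stayed within 2-fold. Of the 15 endocytosis genes, 13, 12, 14 and 14 were above the floor, with 0, 1, 1 and 0 at least 2-fold higher and 1, 1, 0 and 0 lower. Over all genes 1.94%, 1.73%, 2.55% and 1.84% were 2-fold higher and 2.04%, 2.81%, 2.0% and 1.63% lower.

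Cyp24a1, which breaks down active vitamin D, was highest in the combined mutant, and Cyp27b1, which makes it, in db/db, while against Sco2KO/KI both were at least 2-fold higher in the combined mutant. Cyp24a1, the 24-hydroxylase (chromosome 2, 170482708 to 170497145), was at 1.37, 1.33, 0.847 and 7.87. The combined mutant was far above the other 3, with log2 ratios of 3.07 against db/db and 2.47 against Sco2KO/KI. In clusters 0, 2, 3 and 7 of the combined mutant it was at 5.53, 8.67, 4.86 and 1.57, and in cluster 9 at 0.867. In the other 3 libraries cluster 1 was the highest of the 5 clusters, whereas in the combined mutant cluster 2 was higher. Vdr, the vitamin D receptor, was at 1.82, 1.51, 1.36 and 4.67, again with the combined mutant alone high among the 4. Its ratio against db/db was 1.70 in cluster 1 and 0.76 in the mean of the other clusters. Cluster 1 had the lowest Vdr of the 5 clusters in WT, Sco2KO/KI and db/db and the highest in the combined mutant.

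Cyp27b1, the 1-alpha-hydroxylase (chromosome 10, 127048250 to 127053006), was at 0.343, 0.471, 2.40 and 1.51, so both db/db libraries were above both lean ones. Its ratios were 2.49 for db/db against WT and 1.49 for the combined mutant against Sco2KO/KI. In every library Cyp27b1 was highest in cluster 1 of the 5 clusters, and in cluster 9 it was at 0, 0.244, 0.0925 and 0.0602. The promoter window of Cyp27b1 lies at chr10:127047996-127048245 on the plus strand of GRCm38.p6 and does not hold AGGTCA on either strand.
Cyp27b1: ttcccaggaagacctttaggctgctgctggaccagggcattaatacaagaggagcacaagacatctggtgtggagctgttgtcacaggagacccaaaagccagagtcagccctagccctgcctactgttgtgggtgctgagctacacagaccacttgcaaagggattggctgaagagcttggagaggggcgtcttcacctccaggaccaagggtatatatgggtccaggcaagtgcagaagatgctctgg
S100g, the calcium-binding protein calbindin-D9k, was at 0.947, 0.568, 0.767 and 2.26, but cluster 8 held 13.1, 18.7, 5.92 and 27.4, and its levels in clusters 1 and 8 were both highest in the combined mutant. Cluster 9 held 1.93 of S100g in Sco2KO/KI and 4.19 in the combined mutant, more than cluster 1, so in these libraries it is read as background. Of the 17 vitamin D and phosphate genes, 14, 14, 14 and 15 were above the floor, with 0, 1, 3 and 4 at least 2-fold higher and none of them 2-fold lower. For all genes these shares were 1.94%, 1.73%, 2.55% and 1.84% higher and 2.04%, 2.81%, 2.0% and 1.63% lower. Slc34a1 was at 53.9, 53.5, 42.3 and 56.9 and Slc34a3, a minor phosphate carrier, at 1.23, 1.63, 0.719 and 1.48. Pth1r, the parathyroid hormone receptor, was at 4.26, 3.07, 6.51 and 5.63, and Kl (klotho), the coreceptor of the phosphate hormone FGF23, at 5.82, 4.06, 3.56 and 2.84.

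**Figure D4:**
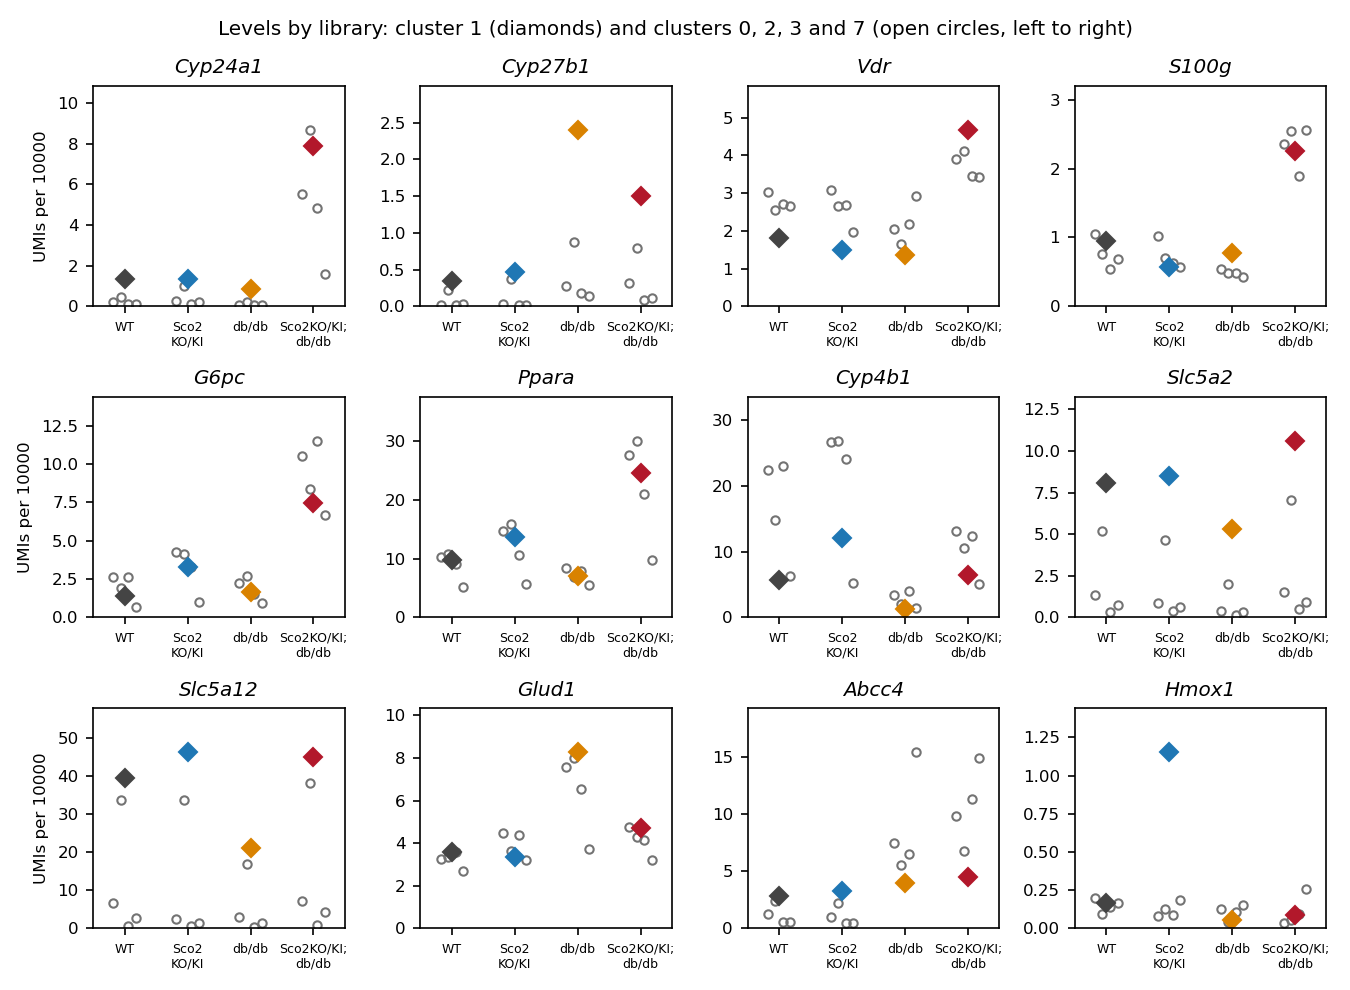
Levels (UMIs per 10000, linear axis from 0) of 12 genes in each library, with diamonds for cluster 1 and open circles for clusters 0, 2, 3 and 7 from left to right. Cyp24a1 and Vdr in cluster 1 were highest in Sco2KO/KI;db/db (7.87 and 4.67), Cyp27b1 in db/db (2.40) and Hmox1 in Sco2KO/KI (1.15).

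Among genes of glucose production, G6pc, the glucose-6-phosphatase that releases free glucose (chromosome 11, 101367561 to 101377903), was at 1.40, 3.25, 1.65 and 7.45. Both libraries with the Sco2 mutation were above both without it, at ratios of 1.16 in lean and 2.11 in db/db mice. Cluster 9 held 0.297, 0.489, 0.677 and 1.32 of it. Clusters 0, 2 and 3 had more G6pc than cluster 1 in the combined mutant, at 10.5, 8.39 and 11.5. The promoter window of G6pc at chr11:101367466-101367715 on the plus strand holds TGACCT, which is AGGTCA on the other strand, at position -54. That position is counted from the RefSeq start, and the window runs past the gene start given above, which comes from another annotation.
G6pc: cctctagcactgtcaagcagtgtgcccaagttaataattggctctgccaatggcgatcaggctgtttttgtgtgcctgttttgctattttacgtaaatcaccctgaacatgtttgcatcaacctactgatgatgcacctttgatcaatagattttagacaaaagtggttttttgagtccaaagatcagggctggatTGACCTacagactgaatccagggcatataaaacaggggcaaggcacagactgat
Slc37a4, which carries glucose-6-phosphate to that enzyme, was at 0.596, 0.452, 0.669 and 1.10. Pck1, the entry enzyme of the pathway, was at 8.70, 7.89, 10.4 and 11, and Fbp1, the next control step, at 6.56, 5.43, 6.79 and 5.6, both within 2-fold. Of the 15 gluconeogenesis genes, 12 were above the floor in each comparison, with 1, 2, 1 and 2 at least 2-fold higher and none 2-fold lower, and medians of -0.17, 0.10, 0.20 and 0.47. Among all genes 1.94%, 1.73%, 2.55% and 1.84% were 2-fold higher and 2.04%, 2.81%, 2.0% and 1.63% lower.

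Fatty acid oxidation genes mostly had positive ratios in both comparisons of the Sco2 mutation. Of 29 listed genes 28 were measured, and 15, 13, 17 and 18 were above the floor in the 4 comparisons. Positive ratios were found for 14 of 15 in Sco2KO/KI against WT and 14 of 17 in the combined mutant against db/db, where over all genes 49.8% and 43.5% were positive. The medians were 0.47 and 0.51 beside 0.00 and -0.07 over all genes. Ppara, the fatty acid sensor that switches these genes on, was at 9.80, 13.7, 7.11 and 24.5. Cpt1a, the gate of mitochondrial oxidation, was at 1.21, 1.62, 0.899 and 2.01. Both had the same order, with the combined mutant highest and db/db lowest. Past 2-fold were 3 genes higher and 0 lower in Sco2KO/KI against WT, Ehhadh, Cyp4a12a and Cyp4b1, and 4 higher and 1 lower in the combined mutant against db/db. Over all genes 1.94% were 2-fold higher in the first and 2.55% in the second. Cyp4a12a, a fatty acid hydroxylase, was at 0.286 and 0.926 in cluster 1 of WT and Sco2KO/KI and at 0.293 and 1.21 in cluster 9, so it is read as background. In WT the level of Ehhadh, at 0.272, was also below the 0.637 of cluster 9, and that of Cyp4b1 was close to it, as given above. The lower gene was Acaa1b, a peroxisomal thiolase, at 0.766, 0.874, 1.32 and 0.436, beside 0.798, 0.933, 1.15 and 0.393 in cluster 9. Levels of Ehhadh, a peroxisomal enzyme of the pathway, in cluster 1 were below those of clusters 0, 2 and 3 in every library. In db/db against WT the list had 1 gene 2-fold higher, Cyp4a10, and 1 lower, Cyp4b1, with a median of 0.02. Cyp4a10, at 0.208, 0.165, 0.916 and 0.509 in cluster 1, was at 0.328, 0.424, 1.16 and 0.822 in cluster 9 and is read as background.

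**Figure D5:**
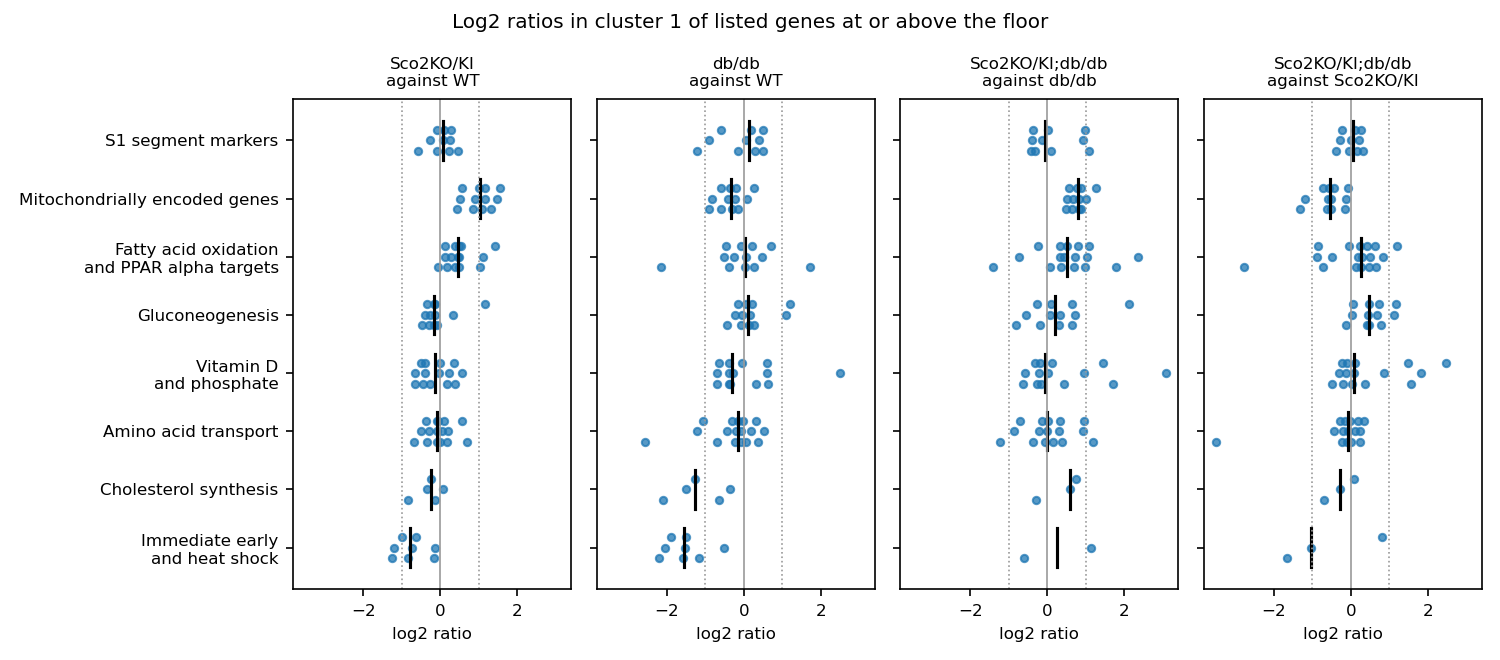
Log2 ratios in cluster 1 of the members of 8 gene lists at or above the floor (points) and their median (black bar) in the 4 comparisons; dotted lines mark 2-fold. All 12 mitochondrially encoded genes were above 0 in both comparisons of the Sco2 mutation, and all 8 immediate early and heat shock genes were below 0 in Sco2KO/KI and db/db against WT.

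Transcripts of the mitochondrial genome are carried over into nuclear preparations, and 12 of 13 were above the floor. All 12 were higher in Sco2KO/KI than in WT, 7 of them at least 2-fold, with a median of 1.04, where over all genes 49.8% were positive, 1.94% passed 2-fold and the median was 0.00. All 12 were higher in the combined mutant than in db/db, 2 of them at least 2-fold, with a median of 0.79, beside 43.5%, 2.55% and -0.07 over all genes. Differences were uneven: mt-Nd2, which codes for part of complex I, stood at 6.08, 18, 3.99 and 7.17, while mt-Co2, a subunit of cytochrome c oxidase, was at 21.1, 28.5, 14.1 and 26.1. The same 12 genes had medians of 0.44 to 1.22 in clusters 0, 2, 3, 7, 4, 5, 8 and 9 for Sco2KO/KI against WT, and mt-Nd2 in cluster 9 was at 7.43, 20.6, 4.36 and 10.2. The difference was thus also present outside cluster 1, including in endothelium-like nuclei, with 1.04 in cluster 1 inside that range. Nuclear genes for cytochrome c oxidase subunits stayed within 2-fold in Sco2KO/KI against WT for all 9 above the floor, and their median ratio was 0.10. All 9 had negative ratios in db/db relative to WT, 1 of them past 2-fold, with a median of -0.28, and in the combined mutant against db/db all 7 above the floor had positive ratios, 1 past 2-fold, with a median of 0.46. In the mean of clusters 0, 2, 3 and 7 these medians were -0.41 and 0.65, so the differences were not particular to cluster 1. Among the subunits Cox8a was at 1.53, 1.83, 0.452 and 1.32, lowest in db/db. It was lowest in db/db in clusters 4, 5, 8 and 9 as well, with 4.32, 2.05, 0.917 and 1.84 in cluster 9. Its levels there were above those of cluster 1 in every library. Over all genes 54.5% of ratios were positive in db/db against WT and 43.5% in the combined mutant against db/db.

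Hmox1 and Gsta2 were the genes of the NRF2 and glutathione list past 2-fold in Sco2KO/KI against WT. Gpx3, the plasma glutathione peroxidase that proximal tubules secrete, was at 143, 143, 94.6 and 193, highest in the combined mutant. Gpx3 was at 101, 76.1, 70.8 and 137 in cluster 9. Of 19 NRF2 and glutathione genes, 13, 12, 11 and 12 were above the floor, with 2, 0, 2 and 1 at least 2-fold higher and 0, 1, 1 and 1 lower. Over all genes 1.94%, 1.73%, 2.55% and 1.84% were 2-fold higher and 2.04%, 2.81%, 2.0% and 1.63% lower, less than 1 gene of such a list. Sesn2, a stress-induced inhibitor of the growth kinase mTORC1, was at 0.212, 0.507, 0.129 and 0.850, with a ratio of 2.05 in the combined mutant against db/db. Atf4 and Ddit3, the central transcription factors of the integrated stress response, were at 0.568, 0.625, 0.455 and 0.549 and at 0.790, 0.896, 0.533 and 0.360. Neither was highest in the combined mutant.

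Of 14 cholesterol synthesis genes 5 were above the floor, all 5 with negative ratios in db/db against WT and 3 at least 2-fold lower, with a median of -1.26. Over all genes 54.5% of ratios were positive, 2.81% were 2-fold lower and the median was 0.04. Among the lower genes was Srebf2, the transcription factor that controls the pathway, at 1.26, 1.05, 0.468 and 0.853. Insig1, a sterol sensor partner, was at 0.539, 0.402, 0.0488 and 0.224, but at 0.743 in cluster 9 of WT and 0.128 in that of db/db. Cluster 9 of the same libraries held 0.591 and 0.490 of Srebf2. The same 5 genes had medians of -0.23 to -1.20 in clusters 0, 2, 3 and 7. Of 19 immediate early and heat shock genes 8 were above the floor, and 7 were at least 2-fold lower in db/db and 3 in Sco2KO/KI, beside 2.81% and 2.04% of all genes. Egr1, an early response transcription factor, was at 0.729, 0.363, 0.0997 and 0.0333, Jun at 1.37, 0.632, 0.390 and 0.258, and Hspa8, a chaperone, at 4.24, 3.87, 1.84 and 1.17. WT was highest for all 8, as it was for Slc12a1, Umod and Spp1, whose part in the result was not tested. For the 8 genes the median ratio in db/db against WT was -1.56 in cluster 1 and -0.70 to -2.00 in clusters 0, 2, 3, 7, 4, 5, 8 and 9. The handling time of each kidney was not given in the sources used here.

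Of the 15 androgen and glucocorticoid genes, 10, 9, 9 and 11 were above the floor, with 1, 0, 4 and 2 at least 2-fold higher and 0, 4, 0 and 1 lower, and Kap and Cyp4b1 are among those lower in db/db. For all genes the shares were 1.94%, 1.73%, 2.55% and 1.84% higher and 2.04%, 2.81%, 2.0% and 1.63% lower. In the combined mutant against db/db 6 of 9 ratios were positive and 3 negative, where 43.5% were positive over all genes. The 4 genes at least 2-fold higher there were Fkbp5, Zbtb16, Per1 and Cyp4b1. Fkbp5, a partner of the glucocorticoid receptor, was at 1.15, 1.56, 1.80 and 4.54, and Tsc22d3, which codes for the glucocorticoid-induced leucine zipper, at 0.612, 0.552, 1.22 and 1.29. Zbtb16, a zinc finger factor, was at 0.119, 0.472, 0.172 and 0.659 and Per1, a clock gene that glucocorticoids also induce, at 0.402, 0.513, 0.261 and 0.661. Tsc22d3 differed little between the combined mutant and db/db, with a ratio of 0.07, and Fkbp5, Zbtb16 and Per1 were highest in the combined mutant. Endothelium responds to glucocorticoids too, and cluster 9 held more Fkbp5, at 1.92, 2.05, 2.42 and 5.39, and more Zbtb16, at 1.21, 5.65, 3.22 and 13.2, than cluster 1 in every library. The part of transcripts from other cells in these levels was not tested. The ratio of Fkbp5 against db/db was 1.29 in cluster 1 and 1.42 in the other clusters. Nr3c1, the glucocorticoid receptor, was at 2.09, 2.91, 2.52 and 1.90.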

How the data were processed

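Single-nucleus RNA libraries of mouse kidney cortex, 1 per genotype, were made on the 10X Chromium system, per the labels' protocols. Cell Ranger, Seurat and the mm10 build are named in the submitters' processing notes, without versions. The authors deposited 1 table of signal values, the mean over the nuclei of each cluster and library of UMIs scaled to a total of 10000 per nucleus; 83 columns hold 21 clusters, and 0 columns were left unassigned. Of 21481 entries, 25 had been turned into dates and were left out, and 21128 of the remaining 21456 names matched GENCODE vM21, the source of gene coordinates.

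Numbers of nuclei were recovered from low values that are whole quotients (at least 80% of quotients, tolerance 1e-10); 3 columns gave none. Depth was estimated as the harmonic mean of UMI totals, chosen after seeing the data. On simulated data the recovery of nuclei was exact in 12 of 12 columns of at least 100 nuclei. Smaller columns are less certain: cluster 9 of Sco2KO/KI gave 65 nuclei, but 130 when 60% of quotients sufficed. Of 200 genes simulated with 3-fold changes 183 were called, and so were 3 others among 3860 genes tested. The simulation held no variation between animals or preparations, so it gives no error rate for the real comparisons.

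Levels were compared as log2 ratios with a pseudocount of 0.1, which understates differences of low genes, and a floor of 0.5 in at least 1 of the libraries compared. With 1 library per genotype no test was made. Named genes were the 10 highest and 10 lowest ratios of each comparison and of cluster 1 against clusters 0, 2, 3 and 7, the 5 highest and 5 lowest differences between cluster 1 and those clusters, and members of the gene lists; a few genes that the rule names are not reported here. The genes that define the cluster, the lists and the comparisons were chosen with earlier results of these data known. Nuclear RNA is largely unspliced, so levels of different genes were not compared. Doublets and barcodes shared between libraries could not be checked from cluster averages. Alternatives were other pseudocounts, floors, scalings and reference clusters. Values were computed with Python 3.11.15, numpy 2.4.6, pandas 2.3.3 and matplotlib 3.10.9, and promoters were read from a RefSeq table.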

Additional observations from a re-analysis of the deposited data

Results flagged for a closer look

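For 5 genes the log2 ratio of the Sco2 mutation passed 2-fold with opposite signs in lean and in db/db mice. With 1 library per genotype the difference between the ratios was not tested. They were 2.6% of the genes higher in lean mice and 3.7% of those lower. Over all genes 2.0% were 2-fold lower and 2.55% higher in the combined mutant against db/db, so the number is near the all-gene share. Pcdh7, a protocadherin, had 2.23 in lean and -2.33 in db/db mice. Gm3448 had 1.21 and -1.46. Slc7a2, the carrier of cationic amino acids, had -1.68 and 1.86, Sugct, the mitochondrial CoA transferase, -1.79 and 1.56, and Dusp1, a phosphatase of the immediate early response, -1.2 and 1.14.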

How the results depend on the processing

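No paired analysis was possible because each genotype has 1 library. The log2 ratio of Hmox1 in Sco2KO/KI against WT was -0.19 in the mean of clusters 0, 2, 3 and 7, the reverse of cluster 1. Counts of genes at least 2-fold higher and lower are given here for Sco2KO/KI and then db/db, each against WT, and for the combined mutant against db/db and then against Sco2KO/KI, in that order, where they moved by over 1.5 times. With a pseudocount of 0.5 they were 25 and 20, 25 and 42, 46 and 23, and 24 and 24, and for cluster 1 against clusters 0, 2, 3 and 7 they were 41 and 58. With a floor of 1.0 they were 41 and 40, 41 and 62, 44 lower, and 47 and 40. With no floor they were 151 and 210, 147 and 184, 157 and 135, and 167 and 133. In the mean of clusters 0, 2, 3 and 7 they were 44 higher in Sco2KO/KI against WT, and 132 and 115 in the combined mutant against Sco2KO/KI. With clusters 0, 2 and 3 as the reference, 82 genes marked cluster 1 by lower levels; with all other clusters as the reference, 157 marked it by higher and 494 by lower levels. For the effect of floors and pseudocounts the cause is their construction, since they remove or shrink low genes; for the other settings the cause was not tested. The other 43 counts, numbers of nuclei and depths were within 1.5 times, and of the values of named genes and lists 1227 moved by less and 160 by more than that limit. A level of 0.5 rests on 34.3 UMIs in Sco2KO/KI and on 113 in the combined mutant, so low genes of Sco2KO/KI are the least certain.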

Other observations

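Among the listed collagen chains only Col27a1, a fibrillar collagen chain, was at least 2-fold higher in db/db than in WT. Col27a1 was at 4.25, 5.92, 13.3 and 13.8 in WT, Sco2KO/KI, db/db and the combined mutant, Col4a3 at 3.76, 3.71, 6.90 and 7.07 and Col4a4 at 3.26, 2.74, 4.76 and 4.86; the latter pair, chains of basement membrane collagen, stayed within 2-fold. Both db/db libraries were above both lean libraries for these 3 genes. The log2 ratio of Col4a3 in db/db against WT was 0.86 in cluster 1 and -0.54 in the mean of clusters 0, 2, 3 and 7. Of the 20 listed matrix genes, 8, 11, 10 and 7 were above the floor in the comparisons as ordered in the report, with 0, 1, 0 and 3 at least 2-fold higher and 3, 1, 2 and 0 lower. Their median in db/db against WT was 0.81 in cluster 1 and -0.03 in the other clusters. Of all genes 1.94%, 1.73%, 2.55% and 1.84% were 2-fold higher and 2.04%, 2.81%, 2.0% and 1.63% lower.

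Of 13 genes of the renin-angiotensin system and brush border peptidases 12 were measured and 5 were above the floor in db/db against WT, with 2 at least 2-fold higher, none lower, 3 negative ratios and a median of -0.30. The higher pair were Dpp4 and Enpep, where 1.73% of all genes were 2-fold higher and 2.81% lower. Dpp4, which cleaves incretin hormones, was at 0.722, 0.731, 1.85 and 1.18, and Enpep, an aminopeptidase that acts on angiotensin II, at 0.349, 0.555, 0.868 and 0.476. Agtr1a, Ggt1 and Mep1a had the negative ratios. Mep1a, a brush border protease, was at 1.22 in cluster 1 of WT and 2.02 in cluster 9, so its WT level is read as background. In db/db it was at 0.737 and 0.463. Among clock genes Nr1d1, a repressor of the clock, was at 0.559, 0.592, 0.203 and 0.346, lowest in db/db, and Hlf, a clock output factor, at 2.32, 3.16, 3.98 and 4.64.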
